A study of Mus musculus with 12 samples.

Results

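The replication-dependent histone genes were described here across 4 populations of mouse intestinal epithelial cells. They were taken as the rows whose symbol begins with Hist1h, Hist2h, Hist3h or Hist4h and whose value reached 10 normalised counts in at least 3 of the 12 libraries. Of 68 such rows 65 passed, out of 30265 genes in the table and 16577 that passed the same filter. The 65 members comprised 6 linker H1, 18 H2A, 16 H2B, 12 H3 and 13 H4 genes. By symbol, 52 belonged to the Hist1 locus on chromosome 13, 10 to Hist2 on chromosome 3, 2 to Hist3 on chromosome 11 and 1 to Hist4 on chromosome 6. The rows just inside the filter were Hist1h1t, Hist3h2bb-ps and Hist1h2ad, with 4, 5 and 6 libraries at 10 or more. The rows just outside it were Hist1h2aa, Hist3h2ba and Hist1h2aj, with 2, 2 and 0 such libraries.

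The cells came from C57Bl/6 mice with a Sox9-GFP reporter and were sorted by flow cytometry into the populations Sox9 High, Sox9 Sublow, Sox9 Negative and Sox9 Low, with 3 libraries (replicates A, B and C) each. Sox9 is a transcription factor of the crypt, and all 4 populations carried the reporter. The labels give no treatment or age. They do not tie replicates to animals, so the p-values here cover the spread among the libraries, which may be technical. In published work with such reporters, Low has been enriched for active stem cells, Sublow for transit-amplifying progenitors, High for enteroendocrine and tuft cells, and Negative for differentiated cells of the villus and Paneth cells. Each library started from 12000 cells, and ribosomal RNA was depleted without poly(A) selection, so messengers without a poly(A) tail could be sequenced.

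Replication-dependent histone genes encode the bulk of the H2A, H2B, H3 and H4 proteins that form the nucleosome core, and the linker H1 that binds the DNA between cores. They lie in clusters, have no introns, and are transcribed mainly in S phase, when newly copied DNA needs new nucleosomes. Their messengers end in a conserved stem-loop instead of a poly(A) tail. The stem-loop is bound by Slbp, and the messengers are degraded when DNA synthesis stops. In the intestinal epithelium, stem cells and progenitors of the crypt divide rapidly, while most villus, enteroendocrine, tuft and Paneth cells no longer divide. Some of these genes are also known to give polyadenylated messengers, which can persist outside S phase.

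The stem-loop is shown first because it is the feature that defines the family. It was found in a transcript of 41 of the 65 members in the GENCODE M21 annotation, 23 of them with exactly the letters capitalised for Hist1h1c. Of the 24 members without a match, 17 had annotated transcripts under 500 bases, and no match says only that these letters are not in the annotated transcript. In the sites printed here, 5′ to 3′ as DNA, capitals mark the stem-loop.
Hist1h1c: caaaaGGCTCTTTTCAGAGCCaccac
Hist1h2ac: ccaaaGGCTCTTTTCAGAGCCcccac
Hist1h2bj: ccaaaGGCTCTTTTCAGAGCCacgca
Hist1h3b: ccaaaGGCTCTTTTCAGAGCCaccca
Hist2h3c1: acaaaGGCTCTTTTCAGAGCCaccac
Hist1h4d: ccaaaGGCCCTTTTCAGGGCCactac
All 10 H4 members with a match carried the GGCCC stem of Hist1h4d, and no H1, H2A, H2B or H3 member did.

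Promoters are shown for 3 members whose levels are compared in the following paragraphs or that hold a class motif. They come from the RefSeq table of build GRCm38.p6, which held 58 of the 65 members and gives 300 bases for each gene, 250 before and 50 after the annotated start. The 250 bases before the start are printed. Capitals mark, on either strand, the H1 box AAACACA, the octamer ATTTGCAT, the CCAAT box and the TATA box TATAAA. Hist1h1b is H1f5, Hist1h1c is H1f2 and Hist1h2bb is H2bc3 in RefSeq.
Hist1h1b, chr13:21780626-21780875, minus strand: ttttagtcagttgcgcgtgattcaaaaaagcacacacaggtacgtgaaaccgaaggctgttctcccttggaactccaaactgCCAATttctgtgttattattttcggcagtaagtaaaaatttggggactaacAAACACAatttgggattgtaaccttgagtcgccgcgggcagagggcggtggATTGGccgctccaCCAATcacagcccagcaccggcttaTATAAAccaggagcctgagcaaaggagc
Hist1h1c, chr13:23738557-23738806, plus strand: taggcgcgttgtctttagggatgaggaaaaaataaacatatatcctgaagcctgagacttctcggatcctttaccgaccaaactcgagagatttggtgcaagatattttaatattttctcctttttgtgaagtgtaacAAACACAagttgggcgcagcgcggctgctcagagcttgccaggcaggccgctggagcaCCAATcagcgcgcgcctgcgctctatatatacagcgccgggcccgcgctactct
Hist1h2bb, chr13:23746484-23746733, plus strand: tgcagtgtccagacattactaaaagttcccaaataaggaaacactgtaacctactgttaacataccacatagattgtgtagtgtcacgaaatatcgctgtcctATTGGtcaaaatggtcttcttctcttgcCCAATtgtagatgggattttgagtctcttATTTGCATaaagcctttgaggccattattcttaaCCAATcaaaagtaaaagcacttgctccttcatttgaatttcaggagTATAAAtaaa

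Over the whole 300-base window and both strands, AAACACA was found in 5 of 6 H1 promoters, 1 of 17 H2A, 1 of 13 H2B and no H3 or H4 promoter, and in 7.18% of all 32851 promoters of the table. ATTTGCAT, a letter string bound by Pou2f1 and its relatives, was found in 6 of 17 H2A and 6 of 13 H2B promoters and in no H1, H3 or H4 promoter, against 1.74% of all promoters. CCAAT was found in every H1, H2A, H2B and H3 promoter in the table but in 3 of 12 H4 promoters, against 37.4% of all promoters. TATAAA was found in 33 of the 58 members and in 13.6% of all promoters. These matches are letters in a window and were not tested as binding sites.

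Library depth lay between 11.6 and 17.0 M reads, and a count of 3 corresponded to 2.38 to 4.61 normalised counts. Sox9 itself was highest in High and lowest in Negative, with 18857, 21060 and 20868 normalised counts in High, 1955, 1259 and 3039 in Sublow, 703, 383 and 725 in Negative, and 7655, 5945 and 6204 in Low. Mki67, a marker of cycling cells, had 2101, 1040 and 1242 in High, 17530, 11832 and 18764 in Sublow, 6131, 1572 and 3679 in Negative, and 20750, 21201 and 18958 in Low. Summed enteroendocrine markers were 377921 to 587854 in High, against 39530 to 78014 in Low, and summed enterocyte markers were 87649 to 537165 in Sublow and 664299 to 1017380 in Negative, against 22944 to 57955 in Low. Summed T cell markers (8 genes) were 2545 to 3854 in High, 381 to 650 in Sublow, 687 to 765 in Negative and 487 to 589 in Low. Summed stromal and endothelial markers (9 genes) were 3749 to 5637 in High, 844 to 1164 in Sublow, 1240 to 1384 in Negative and 1260 to 1879 in Low. In High against Low limma called 1 of the 6 T cell genes tested higher and 0 of the 6 stromal genes tested. In limma's F test over the 4 populations Ptprc passed with adjusted p = 1.95e-08 and Cd8a with 0.0409. Cd3d, Cd3e, Cd3g and Lck did not pass that F test (adjusted p 0.117 to 0.491). Summed B and plasma cell, myeloid and erythroid markers did not exceed 346 in any library, and the part of other cells in the histone levels was not tested.

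As a family, the histone messengers were abundant in Low and Sublow and scarce in High and Negative. Summed over the 65 members, High had 32573, 27476 and 23698 normalised counts, Sublow had 161395, 94219 and 162013, Negative had 54055, 23010 and 38728, and Low had 167579, 151968 and 104546. Every High and Negative library lay below every Sublow and Low library, while High and Negative overlapped each other, and so did Sublow and Low. The sums averaged 27916 ± 4454 in High, 139209 ± 38964 in Sublow, 38598 ± 15523 in Negative and 141365 ± 32827 in Low (SD, n = 3 each). High was 5.06 times and Negative 3.66 times lower than Low, and Sublow was 0.985 of Low. The family took 0.177 to 0.243% of all reads in High, 0.566 to 1.11% in Sublow, 0.112 to 0.31% in Negative and 0.85 to 1.32% in Low. In bulk samples, fewer cells in S phase and less histone RNA per cell cannot be told apart.

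**Figure D1:**
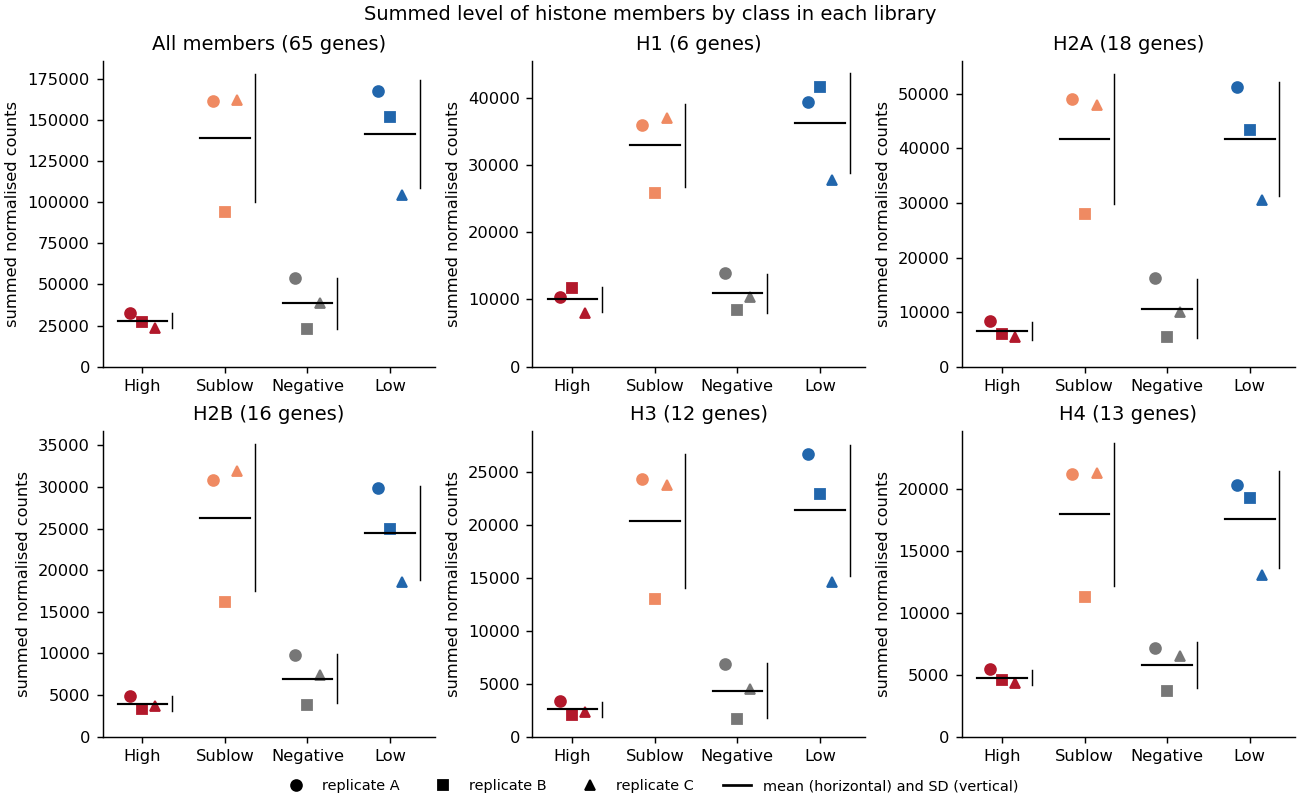
Summed normalised counts of the histone members (y axis, from 0) in each library of the 4 populations (x axis), for all 65 members and for each class. Symbols are replicates, horizontal bars means and vertical bars SD (n = 3). In every panel the High and Negative libraries lie below all Sublow and Low libraries.

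Within a population, many members were lowest or highest in the same library. The share of all genes lowest or highest in these libraries was not counted, so the counts may not be particular to the family. Near-identical members can share reads and are not separate cases. In Sublow, replicate B was the lowest of the 3 libraries for 63 of 65 members. In Negative, replicate B was the lowest for 58 and replicate A the highest for 55. In Low, replicate C was the lowest for 50 and replicate A the highest for 50. In High, replicate B was the lowest for 41 and replicate A the highest for 45. Outside the family, 25 S phase genes summed to 17526, 10926 and 25936 in Sublow A, B and C, to 7717, 3791 and 5420 in Negative and to 25901, 22095 and 25103 in Low. A list of 20 mitosis genes summed to 43260, 30780 and 53184 in Sublow, to 15642, 4255 and 9643 in Negative and to 56743, 56311 and 52051 in Low. Both lists were lowest in Sublow B and Negative B, and in Low the mitosis list was lowest in replicate C and the S phase list in replicate B. Summed enterocyte markers (10 genes) were 264675, 537165 and 87649 in Sublow and 664299, 1017380 and 688313 in Negative, highest in the replicates B in which most histone members were lowest. In Low they were 25350, 57955 and 22944, highest in replicate B and not in the replicate C that was lowest for most members. The part of cell makeup in these library differences was not tested. The ratio of the histone sum to the S phase sum was 6.38 to 9.36 in High, 6.25 to 9.21 in Sublow, 6.07 to 7.15 in Negative and 4.16 to 6.88 in Low, and the lowest value was that of Low C.

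Across the 4 populations, 63 of 65 members differed in limma's moderated F test (adjusted p below 0.05), against 69.5% of all genes tested. The pattern most often seen was held by 46 members. These were lower in High and in Negative than in Low, lower in High than in Sublow and higher in Sublow than in Negative, and passed the test neither between Sublow and Low nor between High and Negative. A further 7 had that pattern and were in addition lower in High than in Negative. Hist1h1t and Hist1h2ap passed in none of the 6 comparisons.

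**Figure D2:**
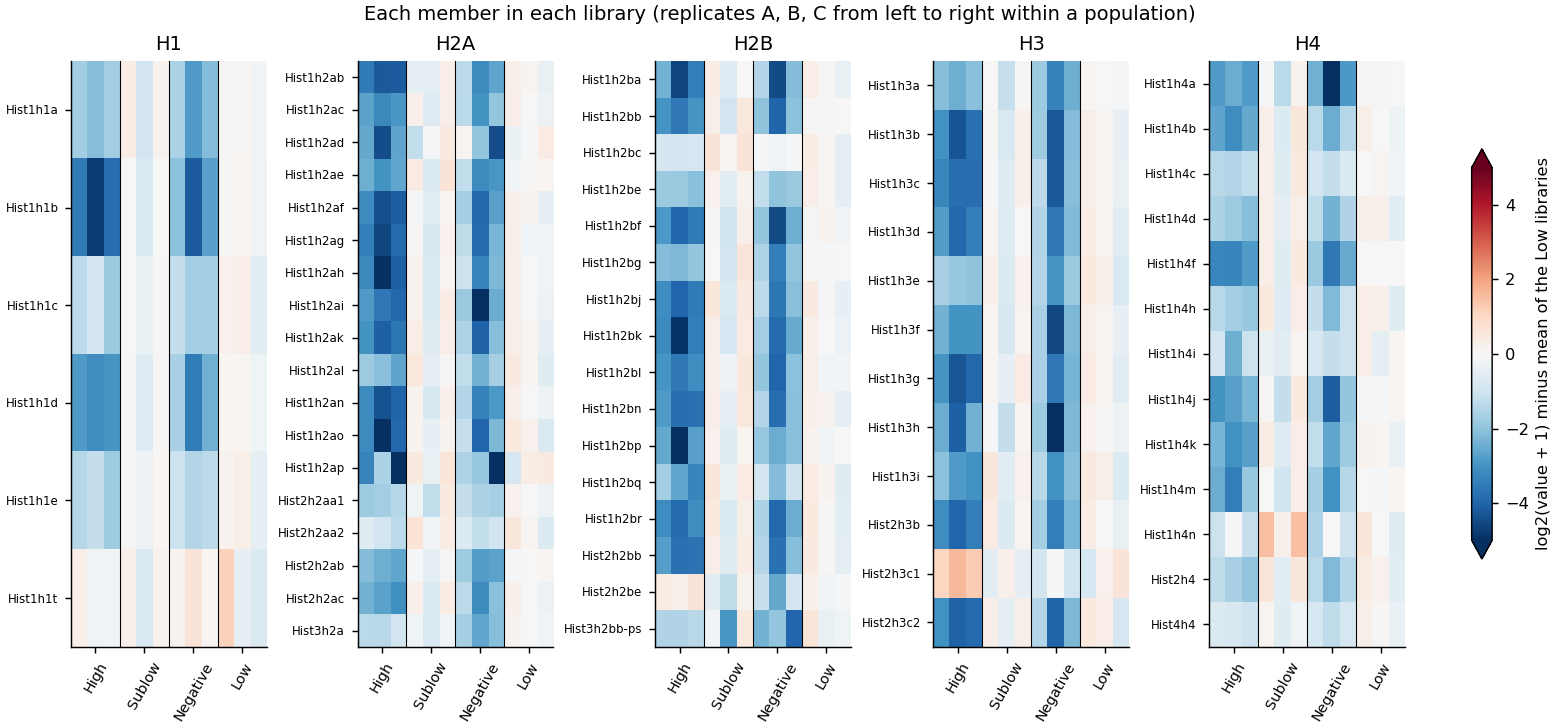
Level of each of the 65 members (rows, by class) in each of the 12 libraries (columns, grouped as High, Sublow, Negative and Low, with replicates A, B and C from left to right) as log2(value + 1) minus the mean of the 3 Low libraries. Blue is lower and red higher than Low, and the colour scale ends at -5 and 5. High and Negative columns are blue for most rows, Sublow columns are pale, and Hist2h3c1 stands out in red in High.

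High and Low differ in Sox9 level and in the cell types described for them, and this comparison asked how far the histone genes differ with them. Of the 65 members, 58 were lower and 1 was higher in High, against 19.3% and 23.6% of all 16577 genes tested and 42.9% in either direction (limma, adjusted p below 0.05). The libraries did not overlap for 60 members lower and 1 higher in High, against 26.4% and 34.3% of all genes. The median log2 difference of the members was -2.76, and that of all genes was 0.10. By class, 5 of 6 H1 members were lower with a class median of -1.67, 17 of 18 H2A with -3.33, 14 of 16 H2B with -3.28, 10 of 12 H3 with -3.19 and 12 of 13 H4 with -1.85. In summed level, High was below Low by 8.34 times for H3, 6.32 for H2A, 6.19 for H2B, 3.69 for H4 and 3.61 for H1. Leaving out single libraries gave 57 to 59 members lower in High. The 58 include Hist1h2ad, with 3, 0 and 3 reads in High, at or under the level of 3 counts. It reached 10 normalised counts in no High library, and its call was lost without High B or without Low C. Its call therefore adds no support.

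Negative and Low set cells with little Sox9 beside those with an intermediate level, and this comparison shares its Low libraries with the one before. Negative was lower than Low for 58 of the 65 members and higher for none, against 30.3% and 26.8% of all genes and 57.2% in either direction (limma, adjusted p below 0.05). The libraries did not overlap for 60 members lower and 0 higher in Negative, against 35.0% and 31.5% of all genes. Both edgeR and DESeq2 also called 58 lower and 0 higher. The median log2 difference was -2.37 for the members and -0.05 for all genes. The class medians were -1.86 for H1, -2.39 for H2A, -2.45 for H2B, -2.52 for H3 and -1.72 for H4, with 5 of 6, 15 of 18, 15 of 16, 11 of 12 and 12 of 13 members lower. Summed levels were 4.94 times below Low for H3, 3.93 for H2A, 3.51 for H2B, 3.32 for H1 and 3.03 for H4. When each library was scaled to the same total, the median of all genes became -0.61 and all-gene calls split into 2439 higher and 8078 lower, beside 4446 and 5028 on the deposited scale. The members' count on that scaling was 62 lower and 0 higher. The 58 lower on the deposited scale include Hist3h2bb-ps, with 2, 2 and 0 reads in Negative, whose call adds no support.

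**Figure D3:**
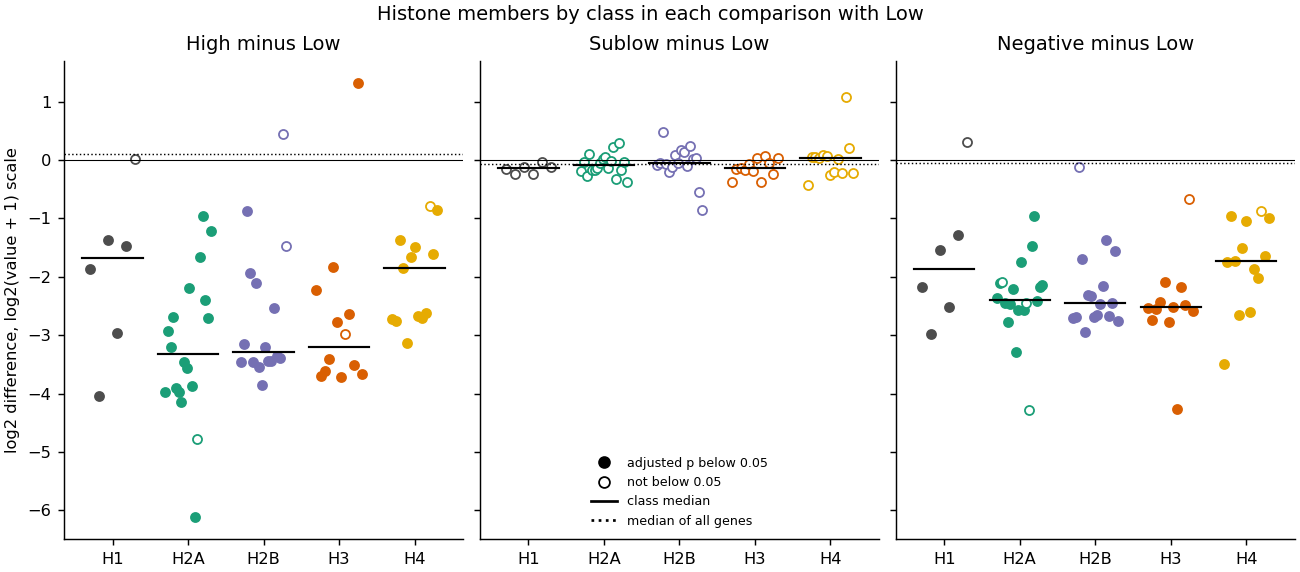
Log2 difference of each member (points) in High minus Low, Sublow minus Low and Negative minus Low (panels), by class (x axis), on the log2(value + 1) scale. Filled points have a limma adjusted p below 0.05, black bars are class medians and dotted lines the median of all genes tested. Most points lie well below 0 in the High and Negative panels, and no Sublow point is filled.

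Among the linker histones, which bind DNA between nucleosomes and compact it, the 5 somatic genes of the cluster differed in how far they were lower. Hist1h1b had 364, 158 and 302 normalised counts in High, 4306, 2507 and 4265 in Sublow, 1018, 238 and 649 in Negative, and 4390, 4609 and 3793 in Low. Its High and Negative libraries all lay below the Sublow and Low libraries, with log2 differences from Low of -4.03 ± 0.45 (SE, limma adjusted p = 3.05e-05) in High and -2.97 ± 0.45 (adjusted p = 0.00014) in Negative. Hist1h1c had 4246, 5328 and 2886 in High, 10205, 8183 and 10739 in Sublow, 4520, 3128 and 3283 in Negative, and 12165, 13066 and 7132 in Low. It kept the same order with a smaller difference, -1.37 ± 0.27 (limma adjusted p = 0.00128) in High and -1.54 ± 0.27 (adjusted p = 0.000351) in Negative. Hist1h1e had 4093, 4771 and 3208 in High, 11472, 9155 and 11745 in Sublow, 5266, 4008 and 4470 in Negative, and 12368, 13358 and 8139 in Low, with log2 differences from Low of -1.47 in High and -1.28 in Negative. Hist1h1a and Hist1h1d had log2 differences from Low of -1.87 and -2.97 in High and -2.18 and -2.52 in Negative, and passed the test in both. The sixth member, Hist1h1t, known as a testis form, had 4.47 to 19.6 normalised counts over the 12 libraries and passed no test.

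The linker histones and the H4 genes each made up a larger share of the family's reads in High than in Low. H1 genes gave 32.0, 42.4 and 33.9% of the members' reads in High, 22.3, 27.4 and 22.9% in Sublow, 25.9, 36.4 and 26.7% in Negative and 23.5, 27.3 and 26.5% in Low. The High libraries lay above the Low libraries, while Negative overlapped Low. H3 genes gave 10.3, 7.38 and 9.78% in High, 15.1, 13.8 and 14.7% in Sublow, 12.6, 7.14 and 11.7% in Negative and 15.95, 15.1 and 14.0% in Low, so that High lay below Low without overlap. The H2A share was 21.8 to 26.0% in High and 28.5 to 30.6% in Low, again lower in High without overlap. The H2B share was 11.8 to 15.6% in High and 16.4 to 17.8% in Low, also without overlap. Within H1, Hist1h1c and Hist1h1e together gave 75.9 to 86.8% of the reads in High, 60.3 to 67.1% in Sublow, 69.9 to 85.3% in Negative and 55.2 to 63.6% in Low. With 3 libraries a group an exact permutation test cannot go below p = 0.1, and these shares were not tested.

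**Figure D4:**
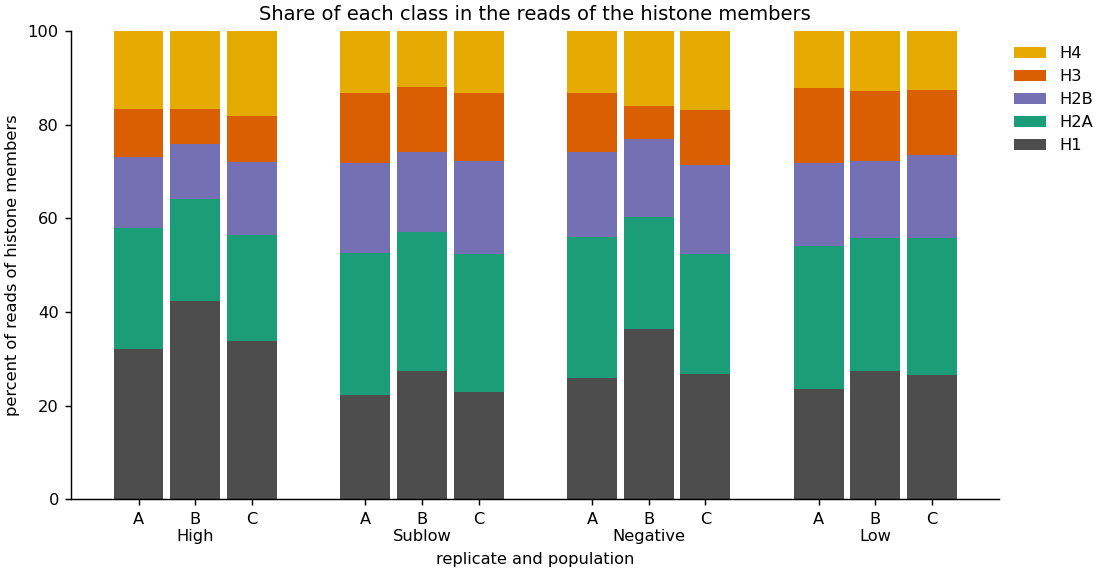
Share of each class (colours) in the reads of the 65 members, in percent (y axis), for replicates A, B and C of each population (x axis). The H1 share is 32.0 to 42.4% in High and 23.5 to 27.3% in Low, and the H3 share is 7.38 to 10.3% in High and 14.0 to 15.95% in Low. The H4 share is 16.6 to 18.1% in High and 12.1 to 12.7% in Low. The H2A and H2B shares are also lower in High than in Low, without overlap.

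H2A pairs with H2B on the outer faces of the nucleosome core. The H2A row with the highest mean was Hist1h2al, which the reference annotates as a processed pseudogene and 32.4% of whose 50-base stretches occur in no other gene. It had 2167, 1798 and 1216 normalised counts in High, 11090, 5672 and 8064 in Sublow, 3305, 1461 and 2432 in Negative, and 10504, 8518 and 5027 in Low. Its difference from Low was -2.19 ± 0.36 (SE, limma adjusted p = 0.000402) in High and -1.75 ± 0.36 (adjusted p = 0.00112) in Negative. The next, Hist1h2ao, had 518, 0.92 and 312 in High, and its near copy Hist1h2ap had 65.9, 229 and 0 in High, 931, 521 and 1024 in Sublow, 232, 180 and 0 in Negative, and 381, 883 and 928 in Low. Only 6.5% and 6.93% of their 50-base stretches occur in no other gene, so the authors' counting could move reads between them. Their sum was 584, 229 and 312 in High, 6320, 4062 and 6379 in Sublow, 2356, 483 and 993 in Negative, and 6972, 6368 and 3816 in Low. Tested as 1 row, an alternative chosen after seeing the data, the pair differed from Low by -3.99 ± 0.49 in High (SE, log2, limma adjusted p = 5.98e-05) and by -2.41 ± 0.49 in Negative (adjusted p = 0.0012). Hist1h2ai, with 1111, 86.1 and 722 in Negative against 4797, 4053 and 3295 in Low, differed by -3.28 in that comparison. Of its 50-base stretches 9.88% occur in no other gene, and summed with Hist1h2ad, Hist1h2ah and Hist1h2an the difference was -2.81.

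All 18 H2A members overlap a gene annotated on the opposite strand, against 1 H2B, 1 H3, 1 H4 and no H1 member. Whether the counting used the strand is not given in the sources used here, so reads of an H2A gene and of its opposite-strand neighbour cannot be told apart. On the same strand, 7 of the 65 members overlap an annotated gene (1 H1, 3 H2A, 2 H2B and 1 H3). The H1 member is Hist1h1e, which overlaps Hist1h2be and Gm11398. Counting by strand would not separate such reads.

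H2B was led by Hist2h2bb and Hist1h2bc. Hist2h2bb had 779, 393 and 409 normalised counts in High, 6584, 3422 and 6877 in Sublow, 1889, 395 and 1204 in Negative, and 7163, 5463 and 3708 in Low, with no overlap between High or Negative and the other populations. Its difference from Low was -3.39 ± 0.50 in High (SE, log2, limma adjusted p = 0.000208) and -2.44 ± 0.50 in Negative (adjusted p = 0.0012). The H2B member with the largest difference in High was Hist1h2bk, with 203, 61.7 and 166 in High against 2205, 1893 and 1525 in Low, a log2 difference of -3.85. Only 25.8% of its 50-base stretches occur in no other gene, and summed with Hist1h2bq and Hist1h2br the difference was -3.06. In Negative the H2B member with the largest difference was Hist1h2bf, with 243, 41.5 and 170 in Negative against 905, 1054 and 852 in Low, a log2 difference of -2.95.

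H3 and H4 form the central tetramer of the core. Hist2h3b had 484, 268 and 385 normalised counts in High, 5603, 2593 and 4586 in Sublow, 1289, 381 and 857 in Negative, and 5405, 4172 and 3278 in Low. Its difference from Low was -3.51 ± 0.41 in High (SE, log2, limma adjusted p = 4.11e-05) and -2.48 ± 0.41 in Negative (adjusted p = 0.000256). Hist1h3b had 486, 201 and 300 in High against 4841, 4358 and 3034 in Low, and Hist1h3g had 185, 72.8 and 93.8 in High against 1891, 1595 and 973 in Low. Their log2 differences were -3.69 and -3.71, and the High and Low libraries did not overlap for either gene. Hist1h3h had 119, 0 and 87.9 in Negative against 488, 437 and 354 in Low, and its fitted difference of -4.27 ± 1.36 (SE) depends on the Negative library without a read.

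H4 differed least from Low together with H1. Hist1h4d, its most abundant member, had 2274, 1969 and 1578 normalised counts in High, 8421, 4892 and 8436 in Sublow, 2830, 1324 and 2434 in Negative, and 8561, 8321 and 4611 in Low. The High and Negative libraries overlapped each other and lay below all others, with differences from Low of -1.85 ± 0.32 (SE, log2, limma adjusted p = 0.000665) and -1.72 ± 0.32 (adjusted p = 0.000633). Hist1h4k had 528, 327 and 402 in High, 1142, 438 and 779 in Negative and 3017, 2958 and 2136 in Low. Hist1h4f had 44.2, 42.4 and 59.1 in High against 430, 430 and 433 in Low, a difference of -3.14. Hist1h4a had 48.6, 6.15 and 34.2 in Negative against 268, 246 and 264 in Low, a difference of -3.49. Hist4h4, the lone member of its locus, had 825, 790 and 660 in High, 1506, 898 and 1204 in Sublow, 741, 564 and 762 in Negative, and 1652, 1406 and 1092 in Low. Its differences from Low of -0.85 in High and -0.996 in Negative both passed the test and were smaller than the H4 medians.

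Per kilobase of coding sequence, H2A was the most abundant class in Low. Summed levels per kilobase in High, Sublow, Negative and Low averaged 17617, 110173, 28153 and 110232 for H2A, and 10378, 68936, 18264 and 64184 for H2B. For H4 they averaged 15382, 57958, 18725 and 56703, for H1 15484, 50511, 16760 and 55513, and for H3 6248, 49970, 10608 and 52492. In High the SDs (n = 3) were 4357 for H2A, 2857 for H1 and 1895 for H4, and the order of these classes was not tested. By single gene in Low, Hist1h2al (on its transcript length, since it has no coding sequence), Hist1h4d, Hist1h1e and Hist1h1c led with means of 23648, 23185, 17182 and 16962 per kilobase. Reads outside the coding sequence enter these values, so genes with long annotated ends are overstated.

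Sublow and Low both expressed mitosis genes strongly, with list sums of 30780 to 53184 in Sublow and 52051 to 56743 in Low, and no histone member passed the test between them. Of the 65 members 0 were higher and 0 lower in Sublow (limma, adjusted p below 0.05), against 13.3% and 10.7% of all genes tested and 24.0% in either direction. Below an unadjusted p of 0.05 were 2 members, Hist1h2bc and Hist1h4n, and edgeR and DESeq2 also gave 0 calls with 2 members each at that level. The lowest adjusted p was 0.0959, of Hist1h2bc. The members' differences ran between -0.86 and 1.08 on the log2 scale with a median of -0.07, and 62 of 65 lay within 0.5 of 0, while the median SE was 0.45. The libraries did not overlap for 0 members higher and 1 lower in Sublow, against 18.3% and 18.7% of all genes. Without Sublow B or without Low A, 1 member was called higher in Sublow, at limma adjusted p = 0.0451 and 0.0382. When each library was scaled to the same total, all-gene calls split into 1301 higher and 3261 lower, beside 2201 and 1778, and still no member was called.

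Sublow against Negative compares a population with high mitosis sums with the population lowest in Sox9. Of the 65 members 56 were higher in Sublow and 0 lower, against 15.1% and 12.7% of all genes and 27.7% in either direction (limma, adjusted p below 0.05), with a median log2 difference of 2.18 for the members and -0.04 for all genes. At an unadjusted p below 0.05 were 60 members, and the libraries did not overlap for 59 members higher and 0 lower in Sublow, against 18.9% and 20.9% of all genes. The summed level was 3.61 times higher in Sublow. With the 6 libraries of this comparison fitted alone, 0 members and 46 of 16577 genes passed, so the calls rest on the spread shared over 12 libraries. On the same-total scaling, all-gene calls split into 3819 higher and 607 lower, beside 2500 and 2097, and 57 members were higher.

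High against Sublow gave 59 members lower and 1 higher in High, against 25.3% and 26.7% of all genes and 52.0% in either direction (limma, adjusted p below 0.05), with a median log2 difference of -2.73. The libraries did not overlap for 61 members lower and 2 higher in High, against 28.0% and 30.6% of all genes. The summed level was 4.99 times lower in High. The 59 lower again include Hist1h2ad, whose call was lost without High B, Sublow B or Sublow C and adds no support. On the same-total scaling, all-gene calls split into 5467 higher and 3169 lower, beside 4421 and 4201, and 56 members were lower and 2 higher.

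High and Negative, both with low histone levels, differed in few members. In High 8 members were lower and 3 higher than in Negative, below the 25.8% and 28.8% of all genes called in the same directions and 54.6% in either (limma, adjusted p below 0.05). The libraries did not overlap for 5 members lower and 4 higher in High, against 30.8% and 34.0% of all genes. The median log2 difference was -0.48 for the members and 0.03 for all genes. The 8 lower members were Hist1h2ab, Hist1h2ag, Hist1h2ah, Hist1h2an, Hist1h2bc, Hist1h2bq, Hist1h3g and Hist1h4b. With near-identical copies summed, an alternative chosen after seeing the data, 6 of 57 rows were lower and 3 higher in High. Hist1h2ah and Hist1h2an, summed with Hist1h2ad and Hist1h2ai, were then not called (-0.82, limma adjusted p = 0.221). Hist1h2bq, summed with Hist1h2bk and Hist1h2br, was not called either (-1.05, limma adjusted p = 0.0517). The sum of Hist1h2ao and Hist1h2ap was lower in High (-1.58, limma adjusted p = 0.0159). The count of 8 was not stable: it was 31 without Negative B, 14 without High A, 13 without Sublow B, 5 without Negative C, 3 without High B or without Negative A, 2 with libraries scaled to the same total and 23 with DESeq2. The balance of directions turned with the same total, where 2 members were lower and 4 higher in High, while DESeq2 gave 23 lower and 3 higher. On that same-total scaling, all-gene calls split into 7467 higher and 2589 lower, beside 4776 and 4278, and the median of all genes was 0.51.

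A few members had patterns of their own. Hist2h3c1, an H3 gene of the Hist2 locus, was the member called higher in High than in Low, with 70.4, 101 and 81.1 normalised counts in High, 22.5, 39.1 and 23.7 in Sublow, 16.9, 30.8 and 15.98 in Negative, and 17.4, 38.5 and 51.5 in Low. Every High library lay above all others. The log2 difference was 1.32 ± 0.41 against Low (SE, limma adjusted p = 0.0209), 1.56 against Sublow (adjusted p = 0.00695) and 1.99 against Negative (adjusted p = 0.00125). The call against Low was lost without High B, High C or Low A, with adjusted p up to 0.0929. None of its 50-base stretches is its own (0%), and the annotated gene Gm20634 overlaps it on the same strand. That share also counts stretches found in overlapping genes, so these limits may not be separate. Gm20634 has no row among the deposited values. The level of Hist2h3c1 is therefore uncertain.

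Hist2h2be, an H2B gene whose longest annotated transcript has 2620 bases, had 154, 137 and 180 normalised counts in High, 77.6, 47.0 and 130 in Sublow, 50.7, 18.5 and 59.3 in Negative, and 138, 101 and 109 in Low. High was called higher than Negative (limma adjusted p = 0.00151), Negative was below Low with a log2 difference of -1.56 (adjusted p = 0.00747), while High and Low overlapped (0.44, adjusted p = 0.435). All of its 50-base stretches (100%) were its own. Hist3h2a had 234, 229 and 317 in High, 506, 351 and 543 in Sublow, 187, 96.9 and 135 in Negative, and 669, 580 and 544 in Low. It was the member lower in High than in Low (-1.21) that was also higher in High than in Negative (0.93, limma adjusted p = 0.00632). The gene Trim17 overlaps it on the same strand and had 11.1 to 62.8 over the 12 libraries. The other Hist3 member, the pseudogene Hist3h2bb-ps, had 4.51, 4.61 and 5.07 in High, 13.3, 1.12 and 21.1 in Sublow, 2.11, 3.08 and 0 in Negative, and 22.9, 11.1 and 12.7 in Low. It was called lower in Negative than in Low (limma adjusted p = 0.0115), a call that ended without Negative C at 0.05002. Its Negative libraries had 2, 2 and 0 reads, all under the level of 3 counts. It passed the filter only through Sublow A, Sublow C and the Low libraries, so this call adds no support.

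Hist1h2bc was called lower in High than in Low, Sublow and Negative. It had 1112, 1044 and 1103 normalised counts in High, 3143, 2218 and 3114 in Sublow, 1868, 1758 and 1873 in Negative, and 2602, 2119 and 1452 in Low. High lay below every other library, and Negative lay within the range of Low. The log2 difference from Low was -0.88 ± 0.19 in High (SE, limma adjusted p = 0.0031) and -0.13 ± 0.19 in Negative (adjusted p = 0.602), and High against Negative was -0.75 (adjusted p = 0.00552). With libraries scaled to the same total that last difference was -0.26 (limma adjusted p = 0.31).

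**Figure D5:**
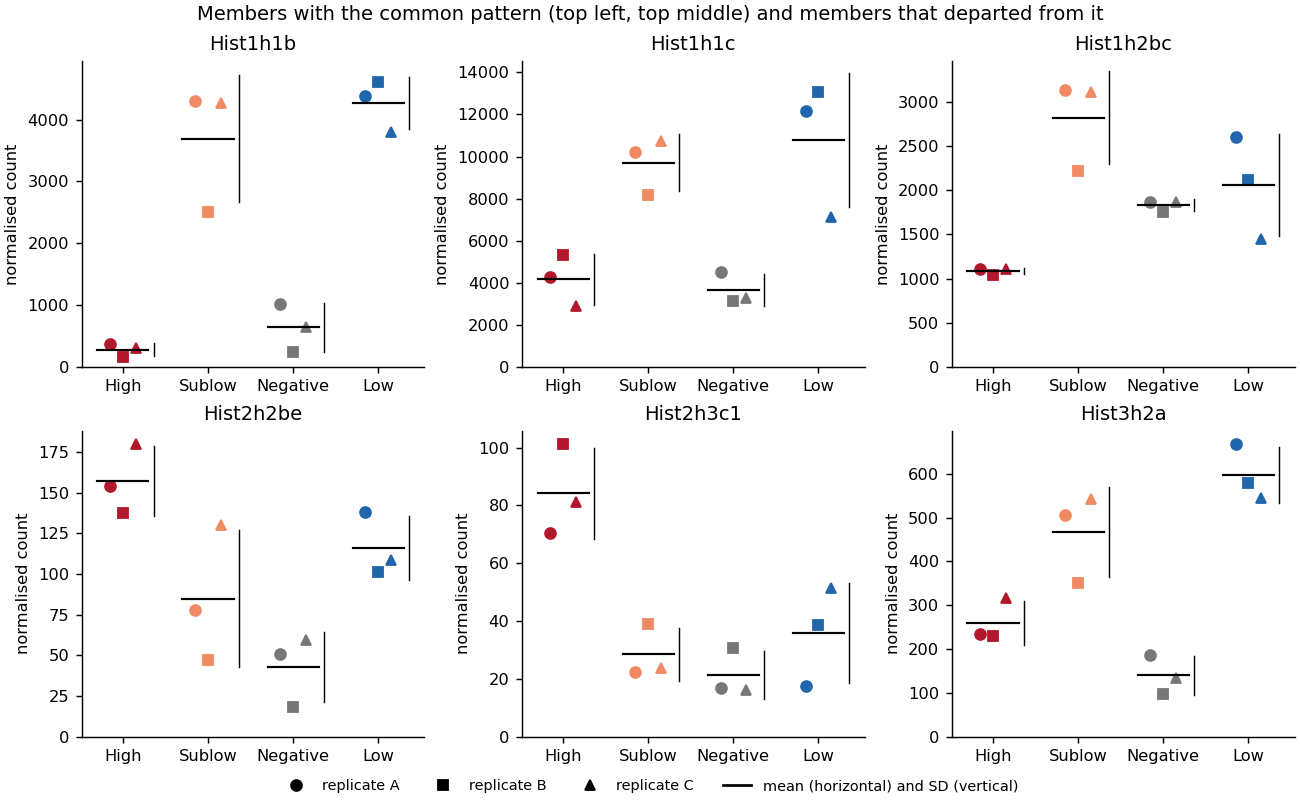
Normalised counts (y axis, from 0) of 6 members in each library of the 4 populations (x axis). Symbols are replicates, horizontal bars means and vertical bars SD (n = 3). Hist1h1b and Hist1h1c are low in High and Negative, Hist1h2bc is low in High, Hist2h2be is low in Negative, Hist2h3c1 is high in High at 70.4 to 101, and Hist3h2a is lowest in Negative.

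Members with long annotated transcripts had smaller median differences. The 17 members with an annotated transcript of at least 1000 bases had a median log2 difference of -1.85 in High against Low, and the 48 shorter ones had -3.15. In Negative against Low the medians were -1.70 and -2.45. Within each class the longer members also had the smaller median in High, at -1.47 and -1.87 for H1, -2.07 and -3.50 for H2A, -1.94 and -3.44 for H2B, -3.09 and -3.24 for H3, and -1.62 and -2.64 for H4. These medians rest on few members, 3 long and 3 short for H1, 2 and 16 for H2A and 5 and 11 for H2B. For H3 they were 4 and 8, and for H4 3 and 10. The long H1 members ran from -2.97 to -1.37, within the -4.03 to 0.01 of the short ones, whose highest was Hist1h1t. Calls were common on both sides, with 15 of 17 and 43 of 48 lower in High, against the 19.3% of all genes. In Sublow against Low both medians were near 0, at -0.06 and -0.08. The annotation does not show which transcripts these cells made, and no test was run on this split.

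Near-identical copies limit how single members can be read. The median member had 46.4% of its 50-base stretches in no other annotated gene, and 34 of 65 had under 50%. The class medians were 98.9% for H1, 26.8% for H2A, 43.5% for H2B, 38.0% for H3 and 60.5% for H4. Summing the 13 members that shared over 80% of such stretches into 5 rows, an alternative chosen after seeing the data, left 57 rows, of which 52 were lower and 1 higher in High than in Low, 54 lower in Negative than in Low and 0 called in Sublow against Low. Hist1h4n was not called in High against Low by itself (-0.78, limma adjusted p = 0.22), and its sum with Hist1h4m was lower in High (-2.36, limma adjusted p = 0.000279).

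Genes that transcribe, process and turn over histone messengers had smaller median differences than the messengers. Of 20 listed genes, 10 were lower and 0 higher in High than in Low with a median log2 difference of -0.53, 11 lower and 1 higher in Negative than in Low (-0.52), and 0 called in Sublow against Low (limma, with 2 at an unadjusted p below 0.05). Of all genes, 19.3% were lower and 23.6% higher in High, 30.3% lower and 26.8% higher in Negative, and 24.0% called either way in Sublow. Slbp, which binds the stem-loop, had 693, 613 and 605 normalised counts in High, 940, 1027 and 1470 in Sublow, 898, 924 and 909 in Negative, and 1200, 1213 and 1171 in Low. Its log2 difference from Low was -0.91 in High and -0.39 in Negative (limma adjusted p = 0.000497 and 0.0433). Npat, the coactivator of histone transcription, fell by 0.65 in High and by 1.57 in Negative. Eri1, an exonuclease that trims and degrades histone messengers, fell by 1.22 in High and by 1.76 in Negative. Hinfp, which binds H4 promoters, was the gene higher in Negative than in Low (0.60, limma adjusted p = 0.00514), and in High it differed from Low by 0.05 (adjusted p = 0.818).

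Among histone chaperones and importers, which carry new histones to DNA, calls were mostly lower as well. Of 20, 15 were lower and 0 higher in High than in Low (median -1.001), and 16 lower and 2 higher in Negative than in Low (median -1.30), against 19.3% of all genes lower in High and 30.3% lower in Negative. Asf1b had 14.4, 4.61 and 14.4 normalised counts in High, 130, 104 and 212 in Sublow, 57.0, 16.9 and 25.1 in Negative, and 153, 148 and 147 in Low, a difference from Low of -3.77 in High and -2.32 in Negative (limma adjusted p = 7.21e-05 and 0.00125). Chaf1a, a subunit of the chromatin assembly factor that acts at replication forks, had differences of -2.66 in High and -2.16 in Negative. Nasp, which holds soluble H3 and H4, had -1.88 and -1.66, and Hat1, which acetylates new H4, had -2.19 in High, all called. Daxx and Tonsl were the 2 higher in Negative, at 0.47 and 0.50. Asf1a and Atrx were the 2 of 20 called in Sublow against Low, both lower, at -0.87 and -0.69, a share below the 24.0% of all genes.

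Among histone variants listed as replication-independent, calls in High went in both directions, as they did among all genes. Of 11, 2 were higher and 4 lower in High than in Low (median -0.13), and 0 higher and 6 lower in Negative than in Low (median -0.65). Of all genes, 23.6% were higher and 19.3% lower in High, and 26.8% higher and 30.3% lower in Negative. H2afx, whose messenger is known in human cells to end either in a stem-loop or in a poly(A) tail, fell by 2.22 in High and by 2.33 in Negative. H2afz and Cenpa, the centromeric H3, were lower in both, at -1.55 and -1.70 in High and -1.51 and -1.69 in Negative. H2afv was lower in High, at -1.503, and differed by 0.15 in Negative (limma adjusted p = 0.57). H1fx, a linker variant, had 442, 546 and 329 normalised counts in High, 27.6, 4.47 and 20.2 in Sublow, and 166, 128 and 80.8 in Low, and was 1.84 higher in High than in Low (limma adjusted p = 0.0148). In Negative it had 2.11, 1.54 and 3.42, which is at or under the level of 3 counts. H1f0, a linker variant of resting cells, had 3543, 3278 and 2128 in High, 3467, 3729 and 3624 in Sublow, 3761, 3755 and 3236 in Negative and 3528, 3616 and 2048 in Low, and passed in neither comparison with Low. H3f3a and H3f3b, which encode the replacement H3, also passed in neither.

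S phase and mitosis genes outside the family were mostly lower in High and Negative than in Low, against 19.3% and 30.3% of all genes. All 25 S phase genes were lower in High than in Low (median -2.85), 24 were lower and 1 higher in Negative than in Low (median -2.44), and 22 were higher in Sublow than in Negative. All 20 mitosis genes were lower in High and in Negative than in Low, with medians of -3.50 and -2.57. In High against Negative, 7 of 25 S phase genes (median -0.46) and 8 of 20 mitosis genes (median -0.95) were lower and 0 of either list higher, against 25.8% and 28.8% of all genes, while 8 of 65 histone members were lower. In Sublow against Low limma called 0 genes of either list, with 3 S phase and 0 mitosis genes at an unadjusted p below 0.05, and the medians were -0.52 and -0.37, while the histone median was -0.07.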

How the data were processed

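RNA-seq was measured in 12 libraries, 3 per population. The deposited values, here called signal or normalised counts, are gene counts that the authors divided by 1 size factor per library. This was read from the values: all were whole multiples of what 1 read is worth in their library, within 0.01. Per the labels' protocols, libraries were single-end, made with a total RNA kit after ribosomal depletion; the sources used here give no aligner, build or counting strand. Of 30265 genes, 2416 were 0 everywhere.

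Values were tested as log2(value + 1) with limma 3.58.1 (trend; R 4.3.3) on genes at 10 or more in at least 3 libraries, with 4 populations in 1 fit and Benjamini-Hochberg adjustment over 16577 genes per comparison, called below 0.05. Fold changes on that scale understate changes of low genes. The 6 comparisons share libraries. Alternatives were a pseudocount of 0.5 or 5, leaving off the filter, requiring a mean of 50, libraries scaled to the same total, TMM scaling, a replicate term, the 6 libraries of a comparison alone, leaving out each library, and edgeR 4.0.16 and DESeq2 1.42.0 on the recovered reads. The procedure was tested on simulated data. The members and gene lists were chosen with earlier results of these data known. Members were named by rule: the somatic linker genes, the 2 most abundant of each class, the called member of each class with the largest difference from Low, those called against the common direction or in no comparison, the Hist3 and Hist4 members, and those nearest the filter; Hist1h4n, Hist1h4m and single genes of the other lists were chosen after their values were seen. The level of 3 counts covers counting error only. Sequences come from GENCODE M21 transcripts and the RefSeq promoter table of GRCm38.p6.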

Additional observations from a re-analysis of the deposited data

How the results depend on the processing

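Of the called values of named members, 0 reversed under any alternative tried. The balance of calls between High and Negative did turn: 8 members were lower and 3 higher in High as reported, and 2 lower and 4 higher with libraries scaled to the same total. The count lower in High than in Negative, 8 as reported, was 21 with a replicate block, 2 with libraries scaled to the same total, 23 with DESeq2 and 12 with edgeR, and 3 to 31 when single libraries were left out. The count higher in Sublow than in Negative, 56 as reported, was 0 when only the 6 libraries of that comparison were fitted, and 46 to 59 with single libraries left out. The single member higher in High than in Low was not tested with a mean of at least 50, giving 0, and leaving out libraries gave 0 to 1. The count higher in High than in Sublow, 1 as reported, was 2 with the replicate block, 2 with the same total, 2 with DESeq2, 0 with a mean of at least 50 and 1 to 2 with libraries left out. The count higher in Sublow than in Low was 0 to 1 with libraries left out. Other counts moved by less than 1.5 times: with libraries left out, 57 to 59 members were lower in High and 56 to 59 lower in Negative than in Low, and 57 to 60 lower in High than in Sublow. Of 93 called values of named members, 65 kept their call in every setting. The labels do not say what the replicate letters stand for, so the fit reported here has no replicate term. Same-letter libraries of different populations correlated at 0.0521 to 0.341 (mean 0.156) in their deviations from the population means, over 18 pairs. Although not all were above 0.1, 12 of 12 libraries correlated best with their own letter. Libraries of a letter thus shared part of their spread, and what they shared was not tested. With the replicate block, 60 members were lower in High and 59 lower in Negative than in Low. The causes of these shifts were not tested. Members below about 10 normalised counts, and members with near-identical copies, limit what single genes show.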
